A study of Rattus norvegicus with 6 samples.

Results

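Zinc buffering and zinc transport were followed through 5 genes in the nuclei of rat ileum: the metallothioneins Mt1 and metallothionein 2 (written Mt2A in the tables), the zinc importer Slc39a4 and the zinc exporters Slc30a1 and Slc30a2. They are 5 of the 28282 gene symbols in the tables, and another 24 zinc genes served as their background. The 5 genes were chosen by name with earlier results of these same libraries known, among them the CON and SAP levels of Mt1 in Paneth-like nuclei. Their CON and SAP values are therefore a description: fold changes come from fits across all genes, and nothing is read from whether a member was called in them.

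Single-nucleus RNA sequencing was performed on ileum of 6 wild-type male Sprague–Dawley rats aged 6 weeks, 3 per group, with 1 library per rat. SAP rats had severe acute pancreatitis, for which the pancreatic duct was filled backwards with sodium taurocholate at 3% (0.1 mL per 100 g at 0.1 mL/min, with the duct then clamped for 5 min). CON rats had a sham laparotomy. All were killed at 24 h after having been fasted with free access to water, visible lymphoid patches were cut away, and all libraries carry the same batch label. The ileal genes Fabp6 (bile acid binding protein) and Slc10a2 (bile acid transporter) were present in all 6 libraries, at 333 to 2234 and 62.3 to 204 CPM (UMIs of a gene per 1000000 UMIs).

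Metallothioneins are small cysteine-rich proteins that hold and release zinc and copper. The transcription factor MTF-1 senses free zinc and drives Mt1, Mt2 and Slc30a1 through metal response elements in their promoters, so these genes are widely read as a sign of zinc available in the cell. In the small intestine Slc39a4 (ZIP4) brings dietary zinc in across the apical membrane of enterocytes and its RNA is known to be kept higher when zinc is short, Slc30a1 (ZnT1) passes zinc out of the cell, and Slc30a2 (ZnT2) loads zinc into vesicles such as the secretory granules of Paneth cells, the crypt cells that release defensins.

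The metal response element is the sequence feature that ties these genes to one factor, so the promoters of the members are shown first. Each runs over the 250 bases before a start site in RefSeq (assembly GRCr8) and is read along the gene's strand, in lower case, with every match to TGCACNC or TGCGCNC on either strand in capitals. Promoters were matched for 4 of the 5 genes, and that of Slc39a4 is not shown. The coordinates belong to GRCr8, not to the build of the expression tables. Mt1 lies at chr19:10832976-10833225 on the minus strand and Mt2A beside it at chr19:10838709-10838958 on the minus strand, Slc30a1 at chr13:106021769-106022018 on the plus strand, and Slc30a2 at chr5:151843201-151843450 on the plus strand, with a further annotated start for Slc30a2 at chr5:151843931-151844180.
Mt1: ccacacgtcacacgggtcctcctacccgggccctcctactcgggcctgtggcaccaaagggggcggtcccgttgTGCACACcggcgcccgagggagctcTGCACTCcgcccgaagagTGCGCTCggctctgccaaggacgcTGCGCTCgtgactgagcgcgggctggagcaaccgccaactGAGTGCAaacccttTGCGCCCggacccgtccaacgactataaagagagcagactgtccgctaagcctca
Mt2A: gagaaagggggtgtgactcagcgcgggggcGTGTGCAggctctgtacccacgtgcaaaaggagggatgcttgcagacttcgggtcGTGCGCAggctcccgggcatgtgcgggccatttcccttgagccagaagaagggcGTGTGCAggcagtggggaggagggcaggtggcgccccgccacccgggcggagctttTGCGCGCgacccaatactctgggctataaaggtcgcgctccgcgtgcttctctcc
Slc30a1: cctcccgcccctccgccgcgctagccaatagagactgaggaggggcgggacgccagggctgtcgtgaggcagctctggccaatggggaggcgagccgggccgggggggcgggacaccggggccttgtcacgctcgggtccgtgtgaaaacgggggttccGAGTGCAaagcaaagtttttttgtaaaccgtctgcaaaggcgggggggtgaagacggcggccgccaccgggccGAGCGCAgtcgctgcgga
Slc30a2: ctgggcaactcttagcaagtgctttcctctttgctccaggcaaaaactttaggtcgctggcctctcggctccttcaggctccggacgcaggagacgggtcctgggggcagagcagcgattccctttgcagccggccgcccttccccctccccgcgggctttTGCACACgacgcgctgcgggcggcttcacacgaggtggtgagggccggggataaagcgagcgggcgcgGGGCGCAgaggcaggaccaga
Slc30a2, further start: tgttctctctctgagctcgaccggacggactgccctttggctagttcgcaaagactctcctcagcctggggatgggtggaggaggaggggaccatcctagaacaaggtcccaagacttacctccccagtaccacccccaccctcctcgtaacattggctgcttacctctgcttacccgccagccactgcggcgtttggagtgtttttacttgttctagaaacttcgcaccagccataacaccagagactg
Mt1 held 6 matches and Mt2A 4, Slc30a1 and the first start of Slc30a2 held 2 each, and the further start of Slc30a2 held 0. Of 33469 RefSeq promoters of the same length, 20.6% held at least 1 match, 4.9% at least 2, 0.266% at least 4 and 0.0269% at least 6. The match nearest the start began 55 bases before it in both metallothionein genes. A match is a run of letters in this window and was not tested as a binding site.

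After the study's limits on nuclei (at least 1200 UMIs and 500 genes, at most 5% mitochondrial UMIs) 40970 of 90461 barcodes remained, 3189 to 9246 per library, with median UMIs of 1516 to 1890 per nucleus. CON replicate 2 and SAP replicate 1 list barcodes under 1000 UMIs, and only 26.2% and 12.2% of their barcodes passed, against 76.4 to 79.9% elsewhere. Median mitochondrial shares per nucleus were 0.125 to 0.700% across the controls and 0.387 to 1.84% with pancreatitis. Nuclei were clustered without the zinc genes and named "X-like" by marker genes, which gave 16 named classes and 5 unnamed clusters, 17 of which had at least 10 nuclei in every library. These names were rebuilt from markers and are not the study's own annotation, so values by class may differ from others made on the same nuclei. Barcode names are running numbers in each library (up to 7479 names are common to a pair of libraries), so a shared name is not a shared nucleus.

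Levels by class are CPM of the summed nuclei of that class in a library, and each such sum is 1 sample. Fold changes of SAP against CON are log2 values from edgeR with their SE, and calls needed a log2 fold change of 0.5 or more in either direction with a Benjamini-Hochberg adjusted p under 0.05. The fits were unpaired unless a replicate block is named, although same-numbered CON and SAP libraries resembled each other, as described under the processing. Over all passing nuclei the members held 5119 UMIs (Mt1), 3322 (Mt2A), 23731 (Slc39a4), 1019 (Slc30a1) and 3490 (Slc30a2). Mt1 and Mt2A are close paralogs, so how the reads were split between them is uncertain. Of the 17 classes and clusters, the filter on low counts let Slc39a4 be fitted in 16, Mt1 in 10, Slc30a2 in 8, Mt2A in 7 and Slc30a1 in 5. No member was called in any of its 56 fits, the sums over all nuclei and over all epithelial nuclei included. edgeR called 0.00802% of all genes pooled over these fits (0 to 0.0468% by class), so hardly any gene was called. An unadjusted p under 0.05 was reached in 25 of the 56 fits, against 8.05% of all genes, and DESeq2 called 13 of the 56 (11 of them Slc39a4, the others Mt1 in Paneth-like and SMC-like nuclei), against 0.661% of all genes. Since these genes were chosen from the same contrast, nothing is read from those counts.

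**Figure D1:**
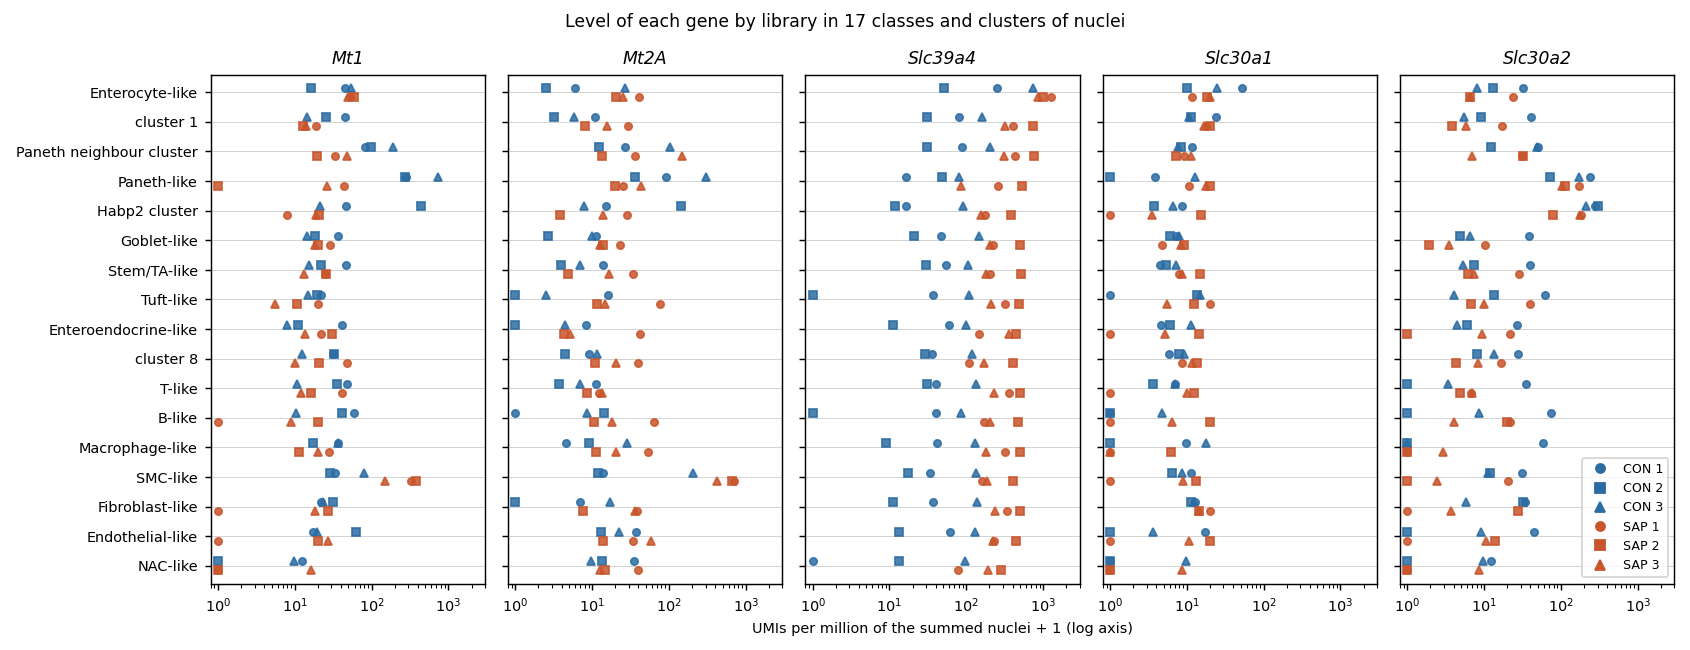
Level of each gene (columns) in 17 classes and clusters of nuclei (rows), in CPM plus 1 on a log axis, with 1 point per library and the groups in different colours. Slc39a4 has SAP points to the right of the CON points in nearly every row, Mt1 and Mt2A have SAP points to the right in SMC-like nuclei, and the CON points of Mt1 stand to the right in Paneth-like nuclei.

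Mt1, the zinc buffer, had its highest mean in the Paneth-like nuclei of CON rats and was lower there in every SAP library. In CON the order was Paneth-like nuclei (427 ± 268 CPM, SD, n = 3), the Habp2 cluster (168 ± 234 CPM) and the Paneth neighbour cluster (124 ± 59.1 CPM), both described further on. The Habp2 cluster overlapped with both of the others, while the lowest Paneth-like library (269 CPM) stood above the highest of the Paneth neighbour cluster (191 CPM). The other 14 classes lay below them at means of 6.66 to 46.0 CPM. In SAP the mean of Paneth-like nuclei was 22.9 CPM, within the 5.12 to 52.3 CPM of the classes other than smooth muscle. Paneth-like nuclei (631 in all) were set apart by Mmp7, Lyz2 and the defensins Defa24 and Defa8, while their marker Mptx1 was at 0. This was read from sums over all libraries, most of whose Paneth-like nuclei came from CON replicate 1. By library, Mmp7, Defa24, Lyz2 and Itln1 together were at 23273 CPM in CON replicate 2, against 60052 to 141790 CPM in the others. The Paneth identity is thus weakest in CON replicate 2. In Paneth-like nuclei Mt1 stood at 276, 269 and 736 CPM in the 3 CON libraries and at 43.3, 0 and 25.5 CPM in the 3 SAP libraries. The groups did not overlap, which held in the same direction for 0.423% of genes in this class, and the log2 fold change was -4.26 ± 0.85 (SE), or -4.65 and called without CON replicate 2. The value of 0 in SAP replicate 2 comes from 20 nuclei with 53209 UMIs, where a count of 0 allows up to 56.4 CPM, still below the CON libraries (counting error only). In all, 1646 Mt1 UMIs were counted in 484 CON nuclei and 12 in 147 SAP nuclei.

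The libraries did not carry this level in the same way. CON replicate 1 gave 406 of the Paneth-like nuclei, with a median of 6927 UMIs against 1437 to 1718 in the other libraries, and its 5 nuclei richest in Mt1 held 19.6% of its Mt1 UMIs. In CON replicate 3 a single nucleus held 123 of the 185 UMIs, and the 5 richest of its 24 nuclei held 97.8%. Mt1 UMIs outside the 5 richest nuclei of each library were set against all UMIs of its Paneth-like nuclei. They came to 222, 70.3 and 15.9 CPM in CON and to 14.4, 0 and 0 CPM in SAP. Since the total keeps the UMIs of the richest nuclei, these are not levels of the remaining nuclei. Thinned to 1200 UMIs per nucleus, 22.4%, 18.5% and 20.8% of CON Paneth-like nuclei held an Mt1 UMI, against 8%, 0% and 3.70% in SAP (0 of 20 nuclei allows up to 15%). The share of nuclei with a UMI did not overlap between the groups at equal depth. It counts the same UMIs as the levels and is not separate support. In CON replicates 2 and 3 it rests on 54 and 24 nuclei, so its counting error is wide there. In T-like nuclei, which are outside the epithelium, the share was 0.531 to 4.86% in CON and 1.64 to 2.33% in SAP. With the replicate number as a block Mt1 in Paneth-like nuclei had a log2 fold change of -4.48 ± 0.69 and was called, as were 0.0769% of genes in that fit. Mt1 was chosen with this contrast known, so neither this call nor the one without CON replicate 2 is evidence of a difference. The mitochondrial share moved with the group here too: 367 of 406, 53 of 54 and 12 of 24 Paneth-like nuclei in CON had up to 1% mitochondrial UMIs, against 9 of 100, 3 of 20 and 13 of 27 in SAP. Its part in the result was not tested, since 2 SAP libraries held under 10 nuclei below that limit.

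Mt1 was lower in SAP also in 2 unnamed clusters, the Paneth neighbour cluster and the Habp2 cluster. The parts of the first did not score best for Paneth markers. Its larger part scored best for goblet markers (1.23), its smaller part for transit-amplifying markers (0.979, against 0.132 for Paneth). In the Paneth neighbour cluster, the 1384 nuclei that first clustered with the Paneth-like ones, Mt1 was at 82.3, 97.3 and 191 CPM in CON and 32.7, 18.4 and 47.3 CPM in SAP (log2 fold change -1.78 ± 0.43). The groups did not overlap there, as for 5.4% of genes in that direction, and with the replicate block it was called at -1.81, as were 0.227% of genes, from which again nothing is read. Nuclei of up to 1% mitochondrial UMIs numbered 156 of 482, 120 of 145 and 91 of 152 in CON and 3 of 214, 8 of 142 and 149 of 249 in SAP, and the part of this share was not tested. The Habp2 cluster is a group of 1478 nuclei that scored best for Paneth markers and stays unnamed. It also had Lgr5, the crypt stem cell gene (355 CPM against 50.4 in other nuclei). Of the other stem markers, Smoc2, Slc12a2, Axin2 and Rgmb were higher there too. Olfm4 (241 against 246 CPM), Ascl2 (1.41 against 2.30) and Cdk6 (205 against 271) were lower. The Habp2 cluster held Mt1 at 45.9, 437 and 20.4 CPM in CON and at 6.93, 19.7 and 17.8 CPM in SAP. The groups did not overlap, but the lowest CON and the highest SAP library were close and the CON mean rested on replicate 2. The log2 fold change was -3.23 ± 1.43, and without CON replicate 2 (or 1) Mt1 was under the filter on low counts, so no value could be computed.

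Summed over all epithelial nuclei, Mt1 was at 99.9, 55.4 and 38.6 CPM in CON and 29.7, 27.8 and 21.6 CPM in SAP, with no overlap (5.13% of genes in that direction). The log2 fold change of -1.43 ± 0.54 became -0.60 without CON replicate 1, which alone gave 2454 of the 5119 Mt1 UMIs. In bulk sums of this kind, fewer Paneth-like nuclei and less RNA per nucleus cannot be told apart: CON replicate 1 had 406 Paneth-like nuclei and the other libraries 20 to 100. Over the 17 classes the SAP mean of Mt1 was higher in 4 and lower in 13, without overlap in 1 and 3 of them. Pooled over the 17 classes, 4.79% of genes had every SAP library above and 6.9% below every CON library. In enterocyte-like nuclei the groups overlapped, with 44.0, 15.2 and 52.8 CPM in CON against 51.1, 58.1 and 47.6 CPM in SAP (0.40 ± 0.48).

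Both metallothioneins were higher in the SAP libraries in nuclei with the markers of smooth muscle (SMC-like). These nuclei had all 7 of their markers above the other nuclei, with Myh11 (smooth muscle myosin) at 2899 against 64.7 CPM. In SMC-like nuclei Mt1 was at 32.6, 27.4 and 77.9 CPM in CON and at 329, 375 and 147 CPM in SAP (log2 fold change 2.58 ± 0.48). Mt2A was at 13, 11 and 207 CPM in CON and at 705, 669 and 416 CPM in SAP (2.90 ± 0.86). Neither gene overlapped between groups, and 7.03% of genes had every SAP library above every CON library in this class. CON replicate 3 stood above the other controls for both genes, and without it the log2 fold changes were 3.23 for Mt1 and 5.61 for Mt2A and both were called. Mt1 was also called without SAP replicate 3, at 2.93. The share of all genes called without these libraries is not given here, and nothing is read from these calls.

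Of the 17 classes with at least 10 nuclei in every library, SMC-like nuclei had the highest level of each metallothionein in SAP. They stood at 284 ± 121 CPM for Mt1 and 596 ± 158 CPM for Mt2A (SD, n = 3), with no overlap with the next class. Among the smaller classes left out, nuclei with fat cell markers had Mt1 at 0, 0 and 224 CPM in SAP, from 2, 8 and 21 nuclei. The last value is above that of SMC-like nuclei in SAP replicate 3 (147 CPM). Thinned to equal depth, 0.617%, 3.91% and 5.2% of CON nuclei and 22.0%, 23.1% and 8.41% of SAP nuclei held an Mt1 UMI. UMIs outside the 5 richest nuclei of each library were set against all UMIs of its SMC-like nuclei. For Mt1 they came to 19.6, 8.21 and 51.7 CPM in CON and 165, 205 and 105 CPM in SAP. For Mt2A they came to 3.91, 0 and 105 CPM in CON and 306, 345 and 282 CPM in SAP. The groups did not overlap in this measure, whose total keeps the UMIs of the richest nuclei. The 2 genes also met in the same nuclei. Of 763 SMC-like nuclei in SAP, 155 held an Mt1 UMI, 215 an Mt2A UMI and 112 both. Of the nuclei with Mt2A, 52.1% also had Mt1, against 20.3% of all. In CON SMC-like nuclei it was 45.3% against 8.58%, and in SAP enterocyte-like nuclei 38.1% against 5.56%, so this was not particular to muscle in SAP. Nuclei of 3 rats were pooled here without thinning, and the part of depth and library was not tested.

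The mitochondrial share moved with this result. Nuclei over 1% mitochondrial UMIs made up 32.7%, 8.94% and 12.3% of SMC-like nuclei in CON and 91.1%, 77.8% and 22.9% in SAP. Among nuclei of up to 1%, Mt1 was at 29.4, 30.3 and 54.2 CPM in CON and 418, 82.2 and 72.1 CPM in SAP, where the value of 418 comes from 11 nuclei. Among nuclei over 1% it was at 40.3, 0 and 182 CPM in CON and 322, 551 and 364 CPM in SAP. On either side of 1% the groups did not overlap for Mt1, and the SAP range was wider among the nuclei of low share. With the limit set at 1% for all nuclei the log2 fold change of Mt1 in SMC-like nuclei was 1.37 in place of 2.58, and that of Mt2A 1.5. In SAP, the 258 SMC-like nuclei with a metallothionein UMI had a median mitochondrial share of 1.33% and a median of 2369 UMIs, against 0.611% and 1784 UMIs in the 505 without. The smooth muscle gene Myh11 was at 1781 and 1503 CPM in these nuclei and at 3763 and 3939 CPM in the corresponding CON nuclei. The part of RNA quality or depth in the metallothionein levels was not tested beyond these values.

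**Figure D2:**
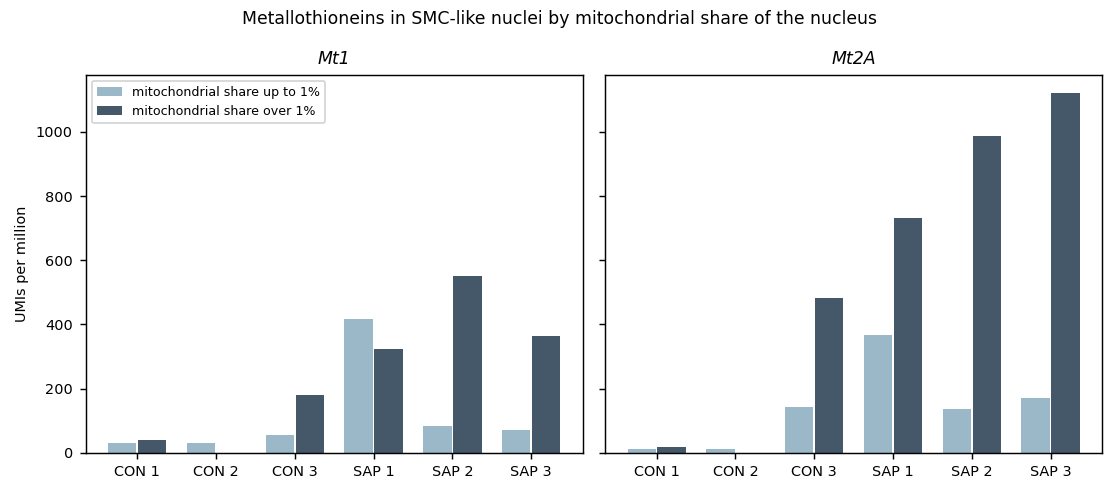
Mt1 (left) and Mt2A (right) in SMC-like nuclei of each library, in CPM of the summed nuclei, with nuclei of up to 1% mitochondrial UMIs in light bars and those over 1% in dark bars. For Mt1 the light bar of SAP replicate 1 (418, from 11 nuclei) stands above its dark bar (322), and for Mt2A the 3 light SAP bars (366, 137 and 172) do not all stand above the light bar of CON replicate 3 (144).

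Among the 17 classes, the SAP means of Mt2A outside SMC-like nuclei lay between 10.5 and 64.7 CPM. In the epithelial classes where Mt1 stood apart, the groups overlapped for Mt2A. In Paneth-like nuclei it stood at 89.5, 35.1 and 299 CPM in CON and 24.0, 18.8 and 42.5 CPM in SAP, overlapping between groups and under the filter on low counts. In enterocyte-like nuclei it was at 4.93, 1.52 and 25.6 CPM in CON and 39.3, 19.6 and 24.4 CPM in SAP (log2 fold change 1.32 ± 0.74), again with overlap. Goblet-like nuclei, the mucus-secreting cells, had 10.3, 1.68 and 8.87 CPM in CON and 22.4, 12.7 and 11.8 CPM in SAP, without overlap (4.72% of genes in that direction). The SAP mean of Mt2A was higher in 15 of 17 classes and lower in 2, without overlap in 2 of the higher ones. Pooled over these classes, 4.79% of genes had every SAP library above every CON library. Over all epithelial nuclei the log2 fold change was -0.00 ± 0.58, and over all nuclei it was 1.07 ± 0.44. In CON Paneth-like nuclei, pooled over rats and not thinned, 277 of 484 held Mt1, 153 held Mt2A and 130 held both.

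Slc39a4, the importer of dietary zinc, was higher in every SAP library than in every CON library in enterocyte-like nuclei and in the sum of all epithelial nuclei. These are levels as counted, with the background described further on not taken off. With it taken off the groups would overlap in enterocyte-like nuclei. Enterocyte-like nuclei had all 13 enterocyte markers above the other nuclei. In them Slc39a4 was at 252, 50.2 and 734 CPM in CON and at 1273, 1008 and 868 CPM in SAP (log2 fold change 1.64 ± 0.81). The SAP libraries lay close together at 1050 ± 206 CPM (SD, n = 3), while the CON libraries were spread over a wide range with replicate 3 close to the SAP level. Every SAP library stood above every CON library for 3.04% of genes in this class. Without CON replicate 3 the log2 fold change was 2.54, and without CON replicate 2 it was 1.11. Nuclei of up to 1% mitochondrial UMIs made up 339 of 631, 364 of 370 and 569 of 705 in CON and 35 of 540, 476 of 1428 and 419 of 658 in SAP, and with only these nuclei the log2 fold change was 1.38. The part of this share was not tested further. Over all epithelial nuclei Slc39a4 was at 68.5, 26.7 and 214 CPM in CON and at 505, 718 and 334 CPM in SAP (2.44 ± 0.70), again without overlap (5.43% of genes in that direction).

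The direction was the same in both clusters that make up the enterocyte-like nuclei. In cluster 2, whose nuclei scored for villus tip genes, Slc39a4 was at 227, 49.0 and 706 CPM in CON and 820, 976 and 835 CPM in SAP. In cluster 15, whose nuclei scored for lower villus genes, it was at 300.1, 61.5 and 989 CPM in CON and 2836, 1388 and 1246 CPM in SAP. Each had all SAP libraries above all CON libraries, for which the share of all genes is not given here. Each of the 6 libraries had the higher value in the lower villus cluster. For CON replicate 2 (61.5 against 49.0 CPM) this rests on very few counts. Its enterocyte-like nuclei held 33 Slc39a4 UMIs over both clusters, so the order in that library is uncertain. Thinned to 1200 UMIs, 21.1%, 5.68% and 39.9% of CON enterocyte-like nuclei and 58.9%, 65.0% and 51.7% of SAP nuclei held a Slc39a4 UMI, and the unthinned means were 33.2% and 72.0%.

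Slc39a4 RNA was also counted in classes outside the epithelium, which should lack it. In T-like nuclei it was at 39.6, 29.4 and 135 CPM in CON and 362, 496 and 229 CPM in SAP (log2 fold change 2.52 ± 0.57), and 3.86%, 3.14% and 15.1% of CON and 24.5%, 39.1% and 23.3% of SAP nuclei held a UMI at equal depth. SMC-like nuclei had 32.6, 16.4 and 132 CPM in CON and 161, 410 and 185 CPM in SAP. Over the 7 classes outside the epithelium the median was 39.0, 12.2 and 129 CPM in CON and 229, 471 and 204 CPM in SAP. Set against the enterocyte-like level of the same library, that median came to 15.5%, 24.3% and 17.6% in the CON rats and to 18.0%, 46.7% and 23.5% in the SAP rats. These levels are taken as the background of Slc39a4 in the libraries. They were not taken off the enterocyte-like levels. Taking that median off would put SAP replicate 2 below CON replicate 3, so the groups would overlap in enterocyte-like nuclei. Whether the median is the right amount to take off was not tested. Droplets can take up free RNA from other cells, and its part in these levels was not tested. Over the 17 classes the SAP mean was higher in 17, without overlap in 15 (cluster 8 and NAC-like nuclei, the neurons and glia, overlapped), and these 17 values share that background. Every SAP library stood above every CON library for 2.87 to 7.03% of genes over the 17 classes, and the log2 fold change lay between 1.64 and 2.71 in the 16 fitted. Without CON replicate 3 it was 4.10 in the Habp2 cluster and 3.28 in SMC-like nuclei. Both were called, from which again nothing is read.

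Slc39a4 was also set against the amount of enterocyte RNA in the same nuclei. The summed level of 6 enterocyte markers in enterocyte-like nuclei was 18558, 2266 and 8941 CPM in CON and 7362, 4918 and 9309 CPM in SAP, with overlap. In T-like nuclei that sum was 1542, 526 and 1833 CPM in CON and 1885, 2257 and 1480 CPM in SAP. Per 1000 UMIs of the 6 markers there were 13.6, 22.1 and 82.1 Slc39a4 UMIs in the CON enterocyte-like nuclei and 173, 205 and 93.3 in SAP, and over all nuclei 21.9, 45.1 and 77.9 against 177, 219 and 114. The groups did not overlap in this ratio, though CON replicate 3 (82.1) and SAP replicate 3 (93.3) were close in enterocyte-like nuclei. The part of enterocyte RNA in the Slc39a4 levels was not tested. In T-like nuclei the ratio came to 25.7, 55.8 and 73.5 in CON and to 192, 220 and 155 in SAP, above the ratio of the enterocyte-like nuclei in each library but CON replicate 3.

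**Figure D3:**
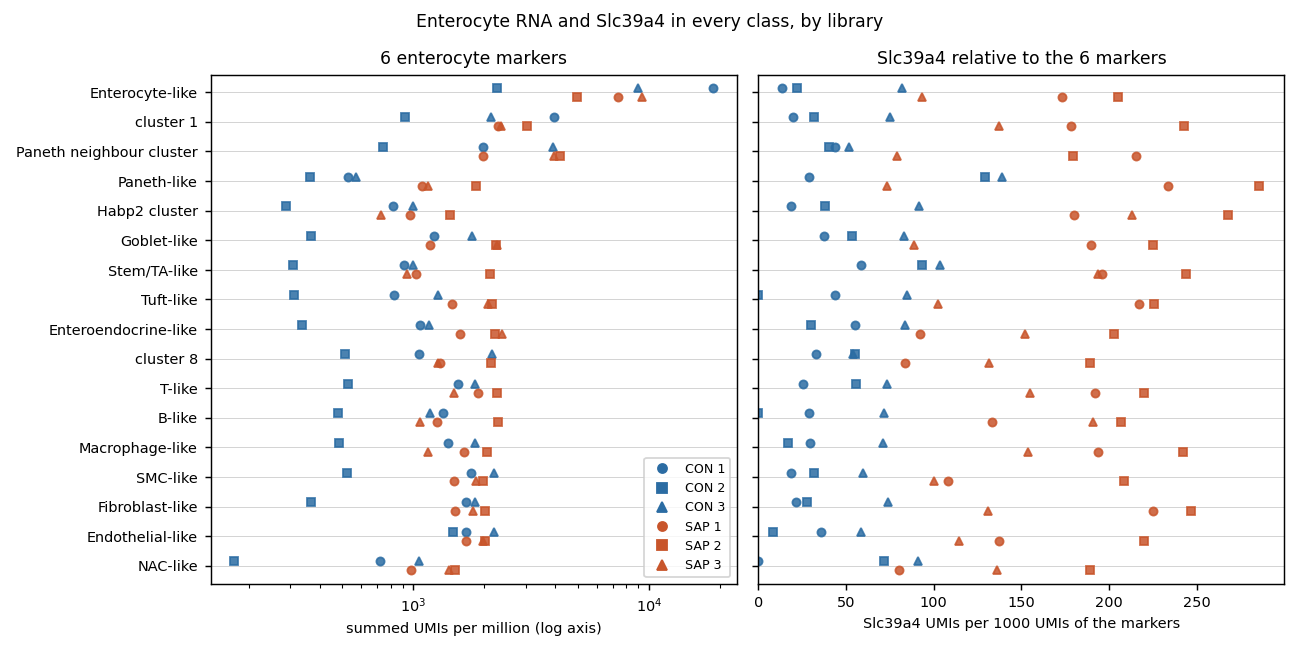
Summed level of 6 enterocyte markers in CPM on a log axis (left) and Slc39a4 UMIs per 1000 UMIs of these markers (right) in each class, with 1 point per library. The marker sums of the groups overlap in enterocyte-like and T-like nuclei, while the ratio is higher in the SAP libraries in both (93.3 to 205 and 155 to 220, against 13.6 to 82.1 and 25.7 to 73.5 in CON).

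Slc30a1, which passes zinc out of the cell, was low, with 552 UMIs in CON and 467 in SAP in all nuclei. In enterocyte-like nuclei it was at 50.6, 9.13 and 23.6 CPM in CON and at 10.8, 17.2 and 18.8 CPM in SAP (log2 fold change -1.03 ± 0.66). The groups overlapped, and without CON replicate 1 the value was 0.07. Over all epithelial nuclei it was at 11.7, 6.00 and 9.94 CPM in CON and 9.97, 15.5 and 10.7 CPM in SAP (0.30 ± 0.46), also with overlap. The SAP mean was higher in 11 classes and lower in 6, without overlap in 2 of the higher ones. These were fibroblast-like nuclei (at most 11.9 CPM in CON, at least 13.2 CPM in SAP) and stem/TA-like nuclei (6.17 against 6.89 CPM). Pooled over the 17 classes, 4.79% of genes had every SAP library above every CON library. In both groups its highest means were in enterocyte-like nuclei (27.8 ± 21.0 and 15.6 ± 4.24 CPM, SD, n = 3) and in the unnamed cluster 1, whose best score was for enterocyte markers (14.3 ± 7.37 and 17.3 ± 1.82 CPM), and these overlapped. In SAP fibroblast-like (15.2 CPM) and Paneth-like nuclei (15.1 CPM) had nearly the same mean as enterocyte-like nuclei, also with overlap.

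Slc30a2, the exporter that loads zinc into granules, was found where the Paneth genes were. In CON it stood at 265 ± 48.4 CPM (SD, n = 3) in the Habp2 cluster and at 159 ± 83.8 CPM in Paneth-like nuclei, which overlapped with each other and lay above the next class (36.1 ± 21.5 CPM) without overlap, and the order was the same in SAP. In the Habp2 cluster it was at 279, 304 and 211 CPM in CON and 180, 78.8 and 173 CPM in SAP (log2 fold change -0.90 ± 0.33), without overlap, as for 7.23% of genes in that direction. In Paneth-like nuclei it was at 237, 70.3 and 171 CPM in CON and 173, 113 and 102 CPM in SAP (-1.01 ± 0.71), with overlap. Without CON replicate 1 the latter was 0.09. The Habp2 cluster had 355 to 399 nuclei in the CON libraries and 83 to 163 in the SAP libraries, while 4 of the 6 libraries had 20 to 54 Paneth-like nuclei. In the Habp2 cluster 299 of 365, 355 of 355 and 393 of 399 CON nuclei had up to 1% mitochondrial UMIs. In SAP it was 16 of 83, 63 of 113 and 153 of 163, and the part of this share was not tested. The 5 richest nuclei held 9.25%, 9.91% and 9.68% of its Slc30a2 UMIs in CON and 46.2%, 53.6% and 20.6% in SAP.

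At equal depth, 29.0%, 29.3% and 23.8% of CON nuclei and 21.7%, 7.08% and 19.0% of SAP nuclei of the Habp2 cluster held a Slc30a2 UMI, against 0 to 4.00% of T-like nuclei. The SAP mean was lower in 17 of 17 classes, without overlap in 1 (6.9% of genes in that direction, pooled over the classes). This count is again not a set of separate observations. The summed Paneth markers Mmp7, Defa24, Lyz2 and Itln1 were far higher in CON replicate 1 and SAP replicate 1 in the 7 classes outside the epithelium that had at least 10 nuclei in each library, with medians of 18604 and 26205 CPM against 1220 to 1911 CPM in the other libraries. Slc30a2 in T-like nuclei was at 34.1 CPM in CON replicate 1 and at 0 to 5.94 CPM in the other libraries. Over all epithelial nuclei Slc30a2 was at 96.6, 29.5 and 22.6 CPM in CON and 33.1, 7.46 and 12.1 CPM in SAP (-1.71 ± 0.88), and without CON replicate 1 the value was -0.33. In the Habp2 cluster there were 5.43, 22.9 and 26.5 Slc30a2 UMIs per 1000 UMIs of the Paneth markers in CON and 3.14, 1.97 and 6.68 in SAP, with overlap. In the Paneth-like nuclei that ratio came to 1.76, 3.02 and 1.21 in CON and to 1.36, 1.23 and 1.70 in SAP, with overlap.

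**Figure D4:**
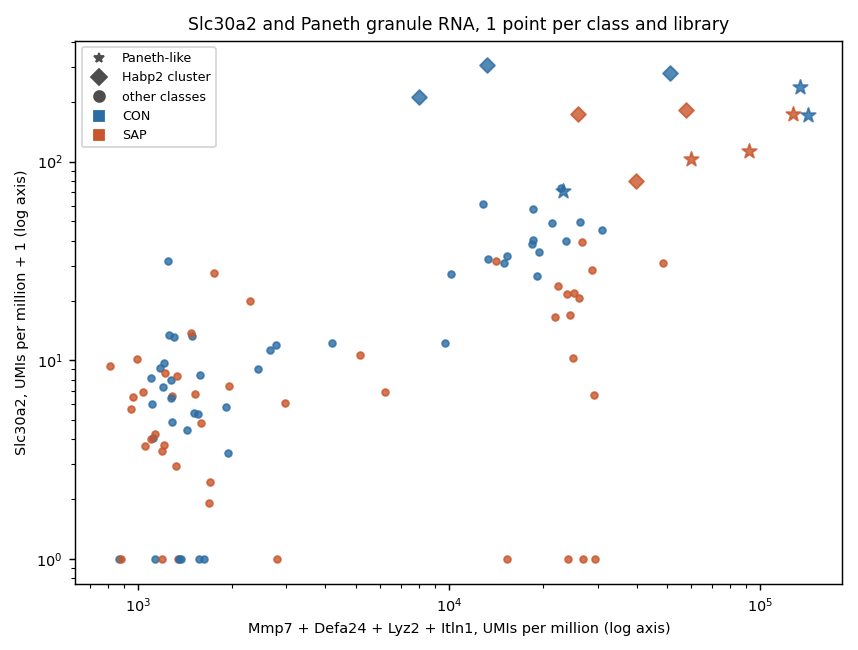
Slc30a2 against the summed Paneth markers Mmp7, Defa24, Lyz2 and Itln1, both in CPM on log axes (Slc30a2 plus 1), with 1 point per class and library, CON in blue and SAP in orange. Stars (Paneth-like) and diamonds (Habp2 cluster) stand highest, and the dots of the other classes fall into a group with low and a group with high Paneth RNA, the second made up mostly of CON replicate 1 and SAP replicate 1.

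**Figure D5:**
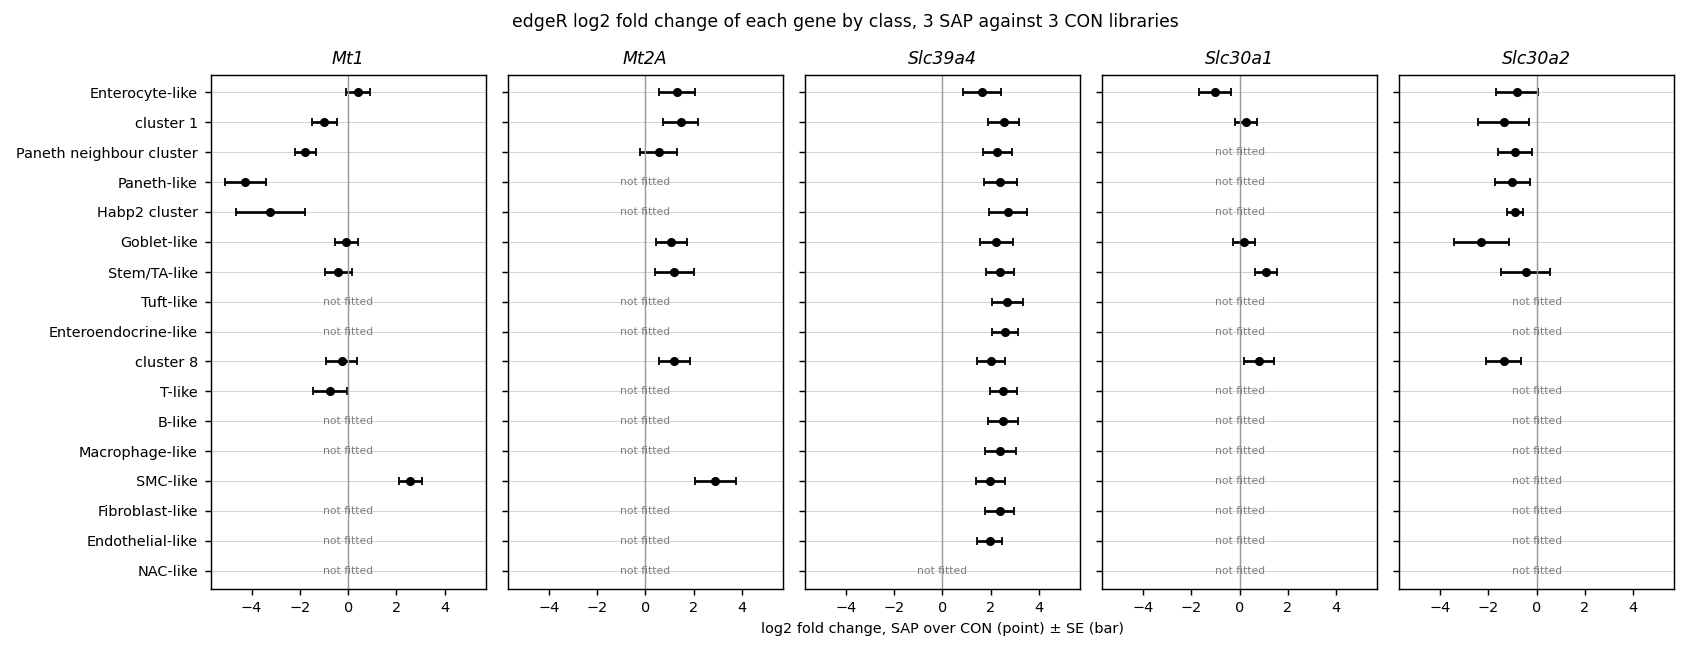
edgeR log2 fold change of SAP against CON (point) with its SE (bar) for each gene in 17 classes and clusters, where "not fitted" marks genes under the filter on low counts. Slc39a4 lies between 1.64 and 2.71 in its 16 fits, while Mt1 runs from -4.26 in Paneth-like to 2.58 in SMC-like nuclei.

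The 2 libraries that list barcodes under 1000 UMIs, CON replicate 2 and SAP replicate 1, form 1 depth class. The other 4 form the other, and the direction was read within each depth class. Within them the log2 ratio of SAP over CON of Mt1 was -2.64 and -5.31 in Paneth-like and 3.59 and 2.24 in SMC-like nuclei, and that of Mt2A in SMC-like nuclei 6.01 and 2.30. Slc39a4 in enterocyte-like nuclei gave 4.67 and 0.93. These had 1 direction in both depth classes. Their groups did not overlap, so any split of the libraries gives that direction, and it is no separate support. Slc30a2 gave -0.76 and -0.96 in the Habp2 cluster, but 1.30 and -0.93 in Paneth-like nuclei and 0.17 and -2.61 over all epithelial nuclei. Mt1 over all epithelial nuclei gave -0.90 and -1.49. For this sum and for Slc30a2 in the Habp2 cluster the direction was likewise fixed by the lack of overlap. Over all classes with counts in both, Slc39a4 was higher in SAP in both depth classes in 15 of 15. Its groups did not overlap in most of these classes, so that count was largely fixed in advance. Slc30a2 had opposite directions in 10 of 11. Mt1 had opposite directions in 7 of 13, and was higher in both in 2 and lower in both in 4. Mt2A was higher in both in 10 of 14 and opposite in 2.

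The 5 genes differed in the company they kept. Over 103 sums of 1 class in 1 library (20 classes) and 11237 genes, the gene most like Slc39a4 by Pearson's r was Dnase1 (0.90), and Creb3l3, Apoa1 and Aoc1 were among the next. Slc30a2 was most like Slc39a10 (0.77), a zinc importer, then RatNP-3b, Defa24, Mmp7 and Defa9. Mmp7 encodes the protease that activates defensins in Paneth granules, and RatNP-3b, Defa24 and Defa9 are defensin genes. Mt1 was most like Cfi (0.60), then Serp1, Plp2, Hspa8 and Ppial4d, and Mt2A most like Gpx4 (0.62), then Rps27, Tpt1, Tmsb4x and Rpl41. Slc30a1 was most like Crb3 (0.56), then Tst, Saraf, Rtp4 and Mrps36. Mt1 and Mt2A had an r of 0.41 with each other. The sums share libraries, depth and free RNA, and these r are descriptions.

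Among the other 24 zinc genes (further importers, exporters, Mtf1 and related genes) edgeR called no gene in any of 268 fits, against 0.00802% of all genes. The unadjusted edgeR p was under 0.05 in 23 of these fits, against 8.05% of all genes. DESeq2 called 0, against 0.661% of all genes. Over all epithelial nuclei 20 were fitted, of which 11 were higher and 9 lower, with a median log2 fold change of 0.05 against -0.00 over all genes, and 3 had an unadjusted p under 0.05 (11.2% of all genes did). In enterocyte-like nuclei 7 were higher and 9 lower, in SMC-like nuclei 8 and 8, in the Habp2 cluster 6 and 8, and in Paneth-like nuclei 3 and 5. The list as a whole thus had no common direction in any of them. The 3 genes of the highest level were Slc39a11, Slc39a10 and Slc30a9, at means of 273, 188 and 154 CPM over the classes. Slc39a10 (ZIP10), an importer of the plasma membrane, stood highest in the Habp2 cluster at 1711, 1622 and 1473 CPM in CON and 874, 448 and 1020 CPM in SAP (log2 fold change -1.03 ± 0.31, adjusted p = 0.307, edgeR). The groups did not overlap (7.23% of genes in that direction), yet it missed the threshold. In Paneth-like nuclei it was at 1382, 351 and 979 CPM in CON and 414, 319 and 527 CPM in SAP (-1.90 ± 1.03, adjusted p = 1.00, edgeR), with overlap. Slc39a11 had a log2 fold change of -0.51 ± 0.24 (adjusted p = 0.465, edgeR) and Slc30a9 of -0.09 ± 0.21 (adjusted p = 0.897, edgeR) over all epithelial nuclei. Mtf1, which encodes the zinc sensor of the metallothionein promoters, was at 35.5, 71.2 and 74.6 CPM in CON and 54.4, 101 and 75.4 CPM in SAP over all nuclei (0.41 ± 0.31, adjusted p = 0.786, edgeR), with overlap.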

How the data were processed

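The deposited files hold UMI counts per gene and barcode for 6 ileum libraries, with no normalization. The authors made them from DNBelab C nuclei libraries, aligned to mRatBN7.2 per the labels, and read them into Seurat 4.3.0. Barcodes with under 1200 UMIs, under 500 genes or over 5% mitochondrial UMIs were removed, as the study states, and genes had to be in 10 nuclei. Samples were grouped as labelled, 3 CON and 3 SAP rats. The members, gene lists and tests were chosen with earlier results of these data known.

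Nuclei were clustered with scanpy 1.11.5 (2000 variable genes, 30 principal components, 20 neighbours, Leiden resolution 0.8). The components were first corrected by library with a re-implementation of Harmony. Zinc, defensin, RT1, Reg3 and mitochondrial genes and a set of genes named in the study were kept out of the variable genes. A cluster was named from a marker score of at least 0.5 that led the next by 1.0 (log2), a lead set after seeing the clusters, and the cluster led by Paneth genes was split at resolution 0.4. The top 5% of Scrublet scores per library (2048 nuclei) were marked as doublets and kept in the main results, since the automatic threshold marked 0 of 40970. Counts were summed per class and library, and SAP was compared with CON over all genes by edgeR 4.0.16 (R 4.3.3; TMM, filterByExpr, quasi-likelihood test, Benjamini-Hochberg). No covariate was used. Total UMIs per library ran from 5549260 to 28771508, so the levels of rare genes are less precise in SAP replicate 1. Shares of nuclei were taken after thinning each nucleus to 1200 UMIs, and floors for counts of 0 (3 counts) cover counting error only.

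Named genes were the 5 members, the 3 other zinc genes of the highest mean level and any that was called, and the 5 genes most like each member, of which 1 is not reported here. Mtf1 was named after its values were seen. The fits recovered strongly changed genes in counts simulated from enterocyte-like means with a spread set in advance. That spread was not taken from these libraries, so the simulation does not measure how often real changes are found here. Libraries of the same replicate number resembled each other. Over 17572 genes, their deviations from the group mean correlated at 0.62, 0.24 and 0.44, and those of other pairs at -0.61 to 0.05. The deviations of the 3 libraries of a group sum to 0, so these correlations depend on each other. Whether the replicate numbers mark a true pairing of rats was not tested. Alternatives were DESeq2 1.42.0 and its size factors, library totals, no filter on genes, the replicate block, depth as a covariate, each library left out, doublets removed, a 1% mitochondrial limit, resolution 0.4 and zinc genes allowed in the clustering. A lead of 0.8 and an unsplit Paneth cluster were added after seeing the data. The study's spatial data were not used here.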

Additional observations from a re-analysis of the deposited data

Results flagged for a closer look

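Mt1 moved in opposite directions in 2 classes of nuclei. The log2 fold change of SAP against CON was -4.26 in Paneth-like nuclei and 2.58 in SMC-like nuclei, with every SAP library below every CON library in the first and above in the second. The difference between the classes was not tested, and both values belong to a gene chosen from this contrast.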

How the results depend on the processing

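Of 843 recomputed log2 fold changes of the members, 816 moved by less than the spread between replicates, 27 moved more, and 817 kept their sign. The counts of calls are not among these values and are given below. With the library total as the only scaling Slc30a2 in Paneth-like nuclei was -0.24, with the median of all genes there at 0.16 against -0.06. An unsplit Paneth cluster gave Slc30a2 -1.82. With library totals 2 of the members' 56 fits were called. A mitochondrial limit of 1% gave Mt1 in SMC-like nuclei 1.37. Without the filter on low counts 16 of 95 fits of members were called. So were 2 of 422 fits of other zinc genes (Slc30a3 in SMC-like nuclei and Slc39a10 in the Habp2 cluster). DESeq2 called 13 of the members' 56 fits, against 0.661% of all genes. The share of all genes called without the filter or with library totals is not given here, so nothing is read from those counts. With the replicate block 2 fits of members were called, both of Mt1, and it changed no other call. Without thinning the SAP share of enterocyte-like nuclei with Slc39a4 was 72.0% in place of 58.5%. The causes of these moves were not tested.

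Leaving out each library gave log2 fold changes over all epithelial nuclei of -1.79 to -0.60 (Mt1), -0.51 to 0.76 (Mt2A), -0.0041 to 0.84 (Slc30a1), -2.70 to -0.33 (Slc30a2) and 1.99 to 3.20 (Slc39a4), where the values nearest or past 0 for Mt1 and Slc30a2 and the highest for Mt2A and Slc30a1 came without CON replicate 1. It gave -1.48 to 0.069 for Slc30a1 and 1.11 to 2.54 for Slc39a4 in enterocyte-like nuclei, -5.46 to -3.81 for Mt1 and -1.67 to 0.085 for Slc30a2 in Paneth-like nuclei, -1.14 to -0.59 for Slc30a2 in the Habp2 cluster, and 2.33 to 3.23 for Mt1 and 2.43 to 5.61 for Mt2A in SMC-like nuclei. Between 0 and 4 fits of members were called: 2 of 61 without CON replicate 2, 4 of 59 without CON replicate 3 and 1 of 59 without SAP replicate 3. The share of all genes called in these fits is not given here, so nothing is read from the counts. Paneth-like nuclei were too few for a fit under the 1% limit, and SMC-like nuclei formed no class of their own at resolution 0.4. Depth limits Slc30a1 most, at 50 to 303 UMIs per library.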

Other observations

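Slc30a3, a zinc exporter, was chosen here after its values were seen. In SMC-like nuclei it was at 26.1, 35.6 and 22.4 CPM in CON and at 0, 0 and 2.90 CPM in SAP, without overlap. A count of 0 in SAP replicates 1 and 2 allows up to 11.75 and 6.15 CPM (counting error only). Over the 17 classes 0.423 to 9.58% of genes had every SAP library below every CON library. The log2 fold change of Slc30a3 was -3.84 ± 0.67 and the adjusted p was 0.0966 (edgeR), which missed the threshold. It thus had the opposite direction to Mt1 and Mt2A in the same nuclei, and this difference was not tested. Slc39a14, an importer, was also chosen after its values were seen. In SMC-like nuclei it was at 93.9, 71.2 and 174 CPM in CON and at 231, 187 and 203 CPM in SAP. The groups did not overlap (0.86 ± 0.34, adjusted p = 0.431, edgeR), as for 7.03% of genes in that direction.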
